A study of Mus musculus with 8 samples.

Results

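The semaphorins, ephrins, Slits and netrins are the classical cues that steer growing axons, and plexins, neuropilins, Eph receptors, Robos and Unc5 proteins are the receptors that read them. In the table of normalized counts from adult mouse retinae, 67 of 18058 genes belonged to these families by their gene names. They were 36 ligands, counting the membrane-anchored netrins G as ligands, and 31 receptors. The ligands were 7 class 3, 6 class 4, 2 class 5, 4 class 6 and 1 class 7 semaphorins, 5 ephrins A, 3 ephrins B, 3 Slits, 3 netrins and 2 netrins G. The receptors were 8 plexins, 2 neuropilins, 8 Eph receptors of subclass A and 5 of subclass B, 4 Robos and 4 Unc5 receptors. All 67 passed the filter of a mean of at least 10 normalized counts. A further 6 annotated gene names that match the same families, among them Epha1, Ntn5 and Plxnb3, were not analysed here.

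Total RNA of adult retinae was compared between 4 WT and 4 quadruple KO libraries, each named A to D. The quadruple KO mice combine constitutive KO alleles of the proteoglycan genes Bcan (brevican) and Ncan (neurocan) and of the tenascin genes Tnc and Tnr, brought together by crossing single KO lines, and the WT mice came from the inbred background strain 129S2/SvPasCrl. Retinae were pooled before RNA extraction according to the study's methods, and the sex and exact age behind each library are not given in the sources used here. The 4 lost proteins are extracellular matrix components of the nervous system, so the comparison asks whether mRNAs of guidance cues and their receptors differ in a retina without them.

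Guidance cues act by attraction or repulsion. Secreted class 3 semaphorins bind neuropilins that signal through plexins, whereas semaphorins of the other classes are mostly membrane-bound and bind plexins directly. Ephrins are held in the membrane and bind Eph receptor tyrosine kinases, Slits repel axons through Robos, and netrins attract or repel depending on whether Dcc or Unc5 receptors are present. In the retina these systems are known for guiding ganglion cell axons to the optic disc and to their targets, for sorting neurites into layers of the inner plexiform layer, and, for several members, for patterning blood vessels. Most of them continue to be transcribed in mature neurons, glia or vessels.

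The 8 libraries summed to 36.1 to 42.2 M normalized counts, which corresponds to an estimated 23.9 to 52.4 M reads. Rod RNA was abundant. The 6 rod markers summed to 1251879 to 1667778 normalized counts in WT and 1674060 to 1809594 in the quadruple KO, without overlap. Limma called 0 of 6, and 1 (Sag) passed an unadjusted p of 0.05, beside 16.6% of all genes tested. The rod gene Sag had 163506 to 198564 in WT and 206628 to 211625 in the quadruple KO. Of all genes tested, 6.16% were higher without overlap in this way. The part of rods in the values of the guidance genes was not tested. Of the targeted genes, Ncan had 688 ± 94.0 normalized counts in WT libraries and 0.390 ± 0.454 in quadruple KO libraries, Bcan 258 ± 54.7 and 15.0 ± 4.79, and Tnr 5856 ± 340 and 2509 ± 95.1 (SD, n = 4 each). Tnc differed by less than the spread between libraries (1265 ± 330 against 1175 ± 104), so its count did not check the genotype label. WT B and WT C stood apart from the other 6 libraries on the first principal component, which held 50.9% of the variance. They had the fewest reads by this estimate (23.9 M in WT B and 27.4 M in WT C), and 0.402% and 0.341% of their counts came from mitochondrially encoded mRNAs, against 1.28% to 1.64% in the others. Values without these 2 libraries are given beside the main results. Over all 17636 genes tested with limma on log2(normalized count + 1), 77 (0.437%) passed an adjusted p of 0.05, 31 lower (0.176%) and 46 higher (0.261%) in the quadruple KO.

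Levels of guidance genes spanned more than 3 orders of magnitude in the WT retina when expressed as normalized counts per kb of the canonical transcript, which allows genes of different length to be compared. Ntng2, a GPI-anchored protein of the netrin G family that binds a synaptic adhesion partner, was the most abundant member, with 3019 ± 51.3 normalized counts per kb (SD, n = 4). The secreted semaphorin Sema3f followed with 1351 ± 103 and the GPI-anchored semaphorin Sema7a with 762 ± 113. The Robo ligand Slit2 had 674 ± 86.1 normalized counts per kb, and the plexins Plxna2, Plxnb1 and Plxnb2 had 575 ± 51.2, 570.2 ± 135 and 464 ± 15.5. In this part of the order, Sema7a, Slit2, Plxna2 and Plxnb1 lay within about 1 SD of their neighbours, whereas the gaps from Ntng2 to Sema3f and from Sema3f to Sema7a exceeded the spread between libraries. These levels depend on the length used. Per kb of all exon bases, the means over the 8 libraries were 1252 for Ntng2, 827 for Sema3f, 751 for Sema7a and 212 for Slit2, against 3122, 1375, 751 and 687 per kb of the canonical transcript, so the first 3 kept their order with smaller gaps and Slit2 moved down. At the other end were Slit3 with 2.21 ± 1.28, the classical attractant Ntn1 with 6.05 ± 1.02, the endothelial receptor Robo4 with 8.92 ± 1.07 and Robo3, which is known from commissural axons, with 11.0 ± 3.19.

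**Figure D1:**
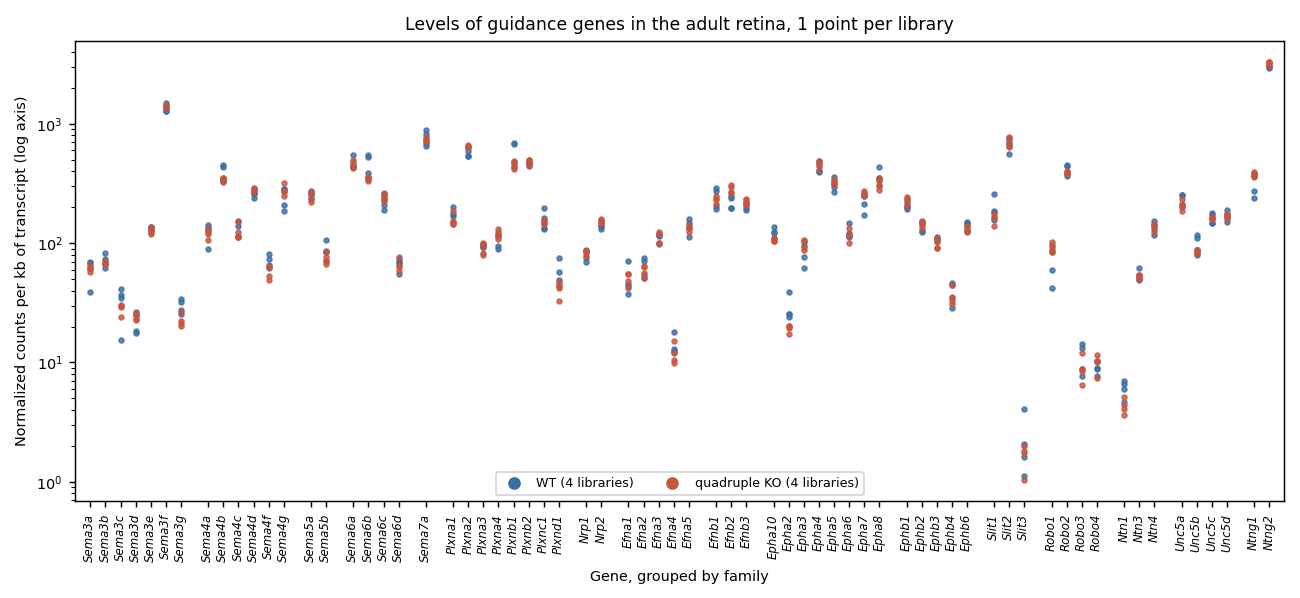
Level of each of the 67 guidance genes in each of the 8 libraries, as normalized counts per kb of canonical transcript on a log axis, with genes grouped by family and 1 point per library. Ntng2 lies highest and Slit3 lowest, and the WT (blue) and quadruple KO (red) points overlap for all genes but Efnb2, Ntng2 and Epha2.

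The highest levels per kb within families, as means over all 8 libraries, were those of Sema3f in class 3, Sema4b in class 4, Sema5a in class 5 and Sema6a in class 6 of the semaphorins. Among the receptors, Plxna2 led the plexins, Nrp2 the neuropilins, Epha4 and Ephb1 the Eph receptors, Robo2 the Robos and Unc5a the Unc5 receptors. Efna5 led the ephrins A and Ntn4 the netrins. Efnb2 led the ephrins B over all 8 libraries (252 against 236 for Efnb1), but in WT libraries alone Efnb1 was the highest (241, against 221 for Efnb2 and 205 for Efnb3). Efnb3 led when all exon bases of a gene were counted, and Plxnb1 then replaced Plxna2 among the plexins.

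With all 8 libraries, summed levels of all ligands and of all receptors differed little between the genotypes. The 36 ligands together had 10673 ± 393 normalized counts per kb in WT and 10874 ± 123 in the quadruple KO, and the 31 receptors had 5888 ± 226 and 5836 ± 180 (SD, n = 4 each). Both differences were smaller than the SD within WT. For the ligands this depended on WT B and WT C, which had 10945 each. WT A (10689.7) and WT D (10111.3) lay below the quadruple KO libraries (10715.4 to 11014.5). For the receptors, WT A had 6158 and WT D 5678, against 5646 to 6080 in the quadruple KO. Single families could differ by more than their SD, which was not tested. The netrins G summed to 3332 ± 71.7 in WT libraries and 3603 ± 103 in quadruple KO libraries, the ephrins B to 667 ± 31.8 and 738 ± 28.7, and the Unc5 receptors to 658 ± 22.0 and 624 ± 22.6. Ntng2 made up 90.6% of the netrins G in WT. Of the ephrins B, Efnb2 had 221 per kb in WT and 282 in the quadruple KO, Efnb3 205 and 224, and Efnb1 241 and 232. These family sums are not given without WT B and WT C.

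The log2 fold change (log2FC) of quadruple KO over WT was tested for each of the 67 guidance genes, and none was called different (0 of 67 at a limma adjusted p of 0.05, beside 0.437% of all genes tested). Their adjusted p-values ran from 0.301 to 0.975. At an unadjusted p of 0.05, 9 members passed, 2 of them higher in the quadruple KO (Efnb2 and Plxna2) and 7 lower (Epha2, Sema3g, Epha10, Sema6b, Ntn1, Sema4f and Plxnd1). This equals 9 of 67 beside 16.6% of all genes tested, of which 9.29% were higher and 7.28% lower. Without WT B and WT C, 0 members were called (beside 0.563% of all genes then tested) and the smallest adjusted p of a member was 0.246. There, 7 members passed the unadjusted p, beside 11.6% of all genes. In the quadruple KO 5 were higher (Efnb1, Efnb2, Sema3f, Sema6c and Sema7a) and 2 lower (Epha2 and Plxnc1), beside 5.77% and 5.82% of all genes. Efnb2 and Epha2 were the 2 members in both sets. The balance of higher and lower members was not the same with and without these libraries, but these are counts of few genes and the change was not tested. The log2FC values of the members ran from -0.53 to 0.43, with 39 below and 28 above 0. Their median was -0.03 for ligands and for receptors alike, beside -0.000183 over all genes tested. Without WT B and WT C it was 0.01 for ligands and -0.03 for receptors, beside 0.01 over all genes, and 27 of the 67 members had the opposite sign.

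The intervals show which differences the 8 values of each gene allow, without adjustment over genes. They do not give the smallest difference that could have been called. The 95% interval of the difference lay within 1.5-fold in either direction for 51 of 67 members (53.2% of all genes tested) and within 2-fold for 66 (81.3%). The exception was Slit3, the member with the fewest counts, whose interval reached a 2.27-fold lower level in the quadruple KO.

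**Figure D2:**
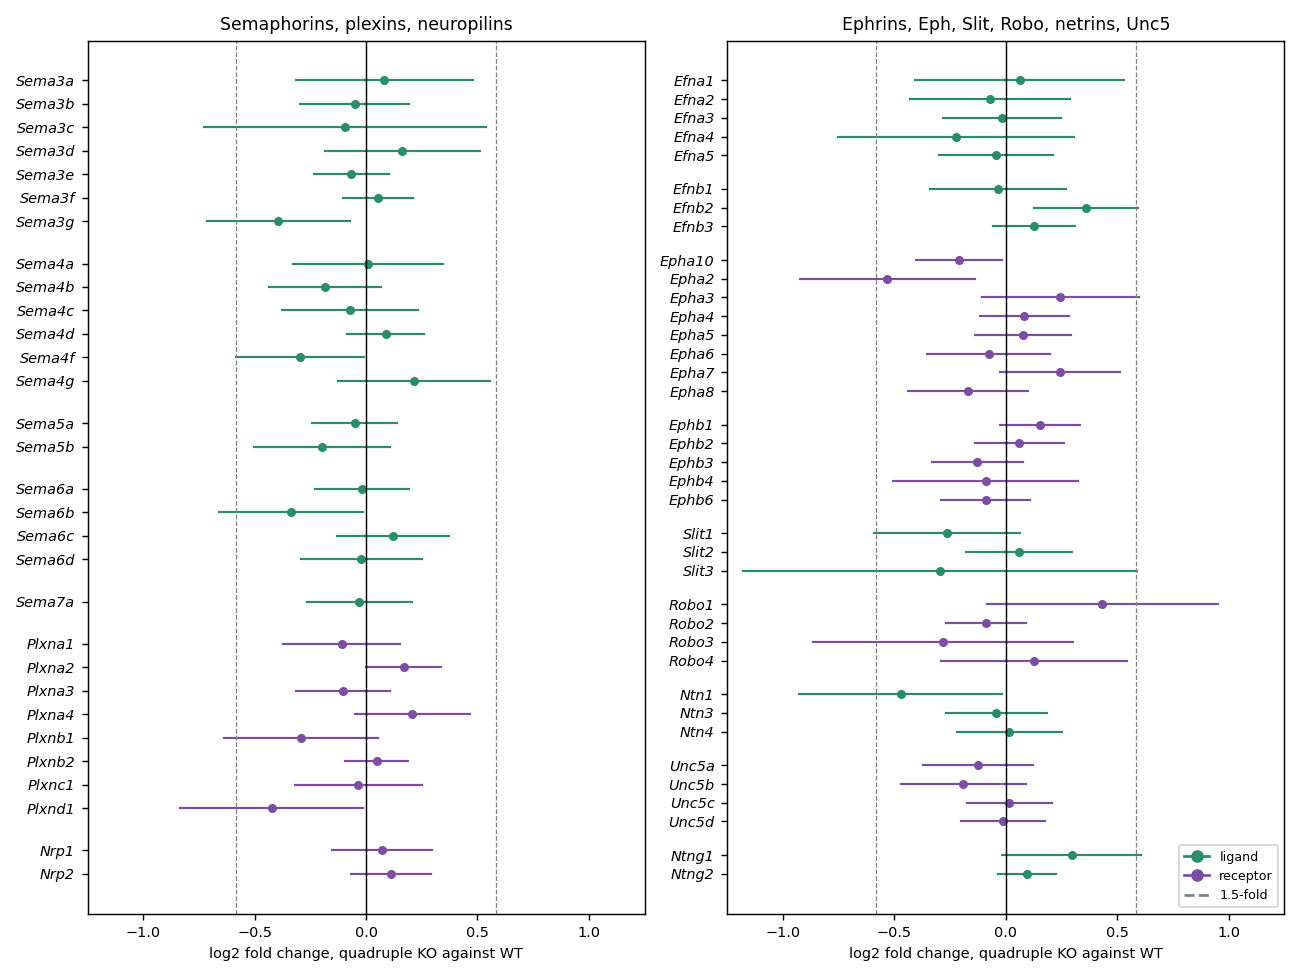
Log2FC between quadruple KO and WT for the 67 guidance genes, on the scale of log2(normalized count + 1), with its 95% limma interval (4 libraries per genotype). Ligands are green and receptors purple, the solid line marks no difference and the dashed lines 1.5-fold, and all 67 estimates lie between the dashed lines, from -0.53 for Epha2 to 0.43 for Robo1.

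In 3 of 67 members the 4 quadruple KO libraries did not overlap with the 4 WT libraries, Efnb2 and Ntng2 being higher and Epha2 lower. Of all genes tested, 9.74% did not overlap (6.16% higher and 3.58% lower). The count depended on the libraries used: it was 8 without WT A, 11 without WT D, 5 without quadruple KO B, 5 without quadruple KO C and 6 without quadruple KO D, beside 15.9%, 24.3%, 13.0%, 12.2% and 13.2% of all genes. Without WT B and WT C it was 10, beside 22.3% of all genes. Those 10 were Efnb1, Efnb2, Ntng2, Sema3b, Sema3f, Sema6c and Sema7a on the higher side and Epha2, Unc5c and Plxnc1 on the lower side.

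The ephrin system held 2 of the 3 members without overlap. Efnb2 encodes a transmembrane ligand that marks arterial endothelium and is also made by neurons. Efnb2 (ENSMUSG00000001300.17, chr8:8667226-8711249, minus strand, GRCm39) had 1247, 987, 995 and 1198 normalized counts in WT A to D and 1306, 1332, 1539 and 1479 in quadruple KO A to D. The quadruple KO libraries lay above all of WT, but the gap between WT A and quadruple KO A was small, and WT B and WT C were the lowest. The log2FC was 0.36 (SE 0.10, limma adjusted p = 0.301), and it was 0.21 without WT B and WT C. The exact permutation p was 0.0286, the smallest that 4 against 4 libraries allow. Every gene without overlap has this value (9.74% of all genes tested), so it adds nothing to the missing overlap. Efnb3, a neuronal ephrin B, had 757, 745, 684 and 662 normalized counts in WT and 759, 805, 818 and 727 in quadruple KO libraries. Its genotypes overlapped (log2FC 0.13, limma adjusted p = 0.373), as did those of Efnb1 (log2FC -0.04, and 0.21 without WT B and WT C).

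Epha2, an Eph receptor of subclass A found in epithelia and vessels, had the largest absolute log2FC of all members. Epha2 (ENSMUSG00000006445.4, chr4:141028540-141056695, plus strand) had 101, 154, 99.2 and 95.1 normalized counts in WT A to D and 79.4, 76.8, 67.8 and 79.5 in quadruple KO A to D. WT B stood alone at the top, and the quadruple KO libraries lay closely together below all of WT. The log2FC was -0.53 (SE 0.17, limma adjusted p = 0.301), and it was -0.37 without WT B and WT C. The exact permutation p of 0.0286 again followed from the missing overlap alone. The summed counts of 4 lens markers were also highest in WT B (1659, against 64.4, 434 and 179 in WT A, C and D). In the quadruple KO they ranged from 31.8 in B to 1344 in C, the library with the lowest Epha2 count (67.8). The part of lens RNA in the value of WT B was not tested.

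The abundant Eph receptors of neurons showed smaller differences. Epha4, which binds ephrins of both subclasses, had 3091, 2567, 2497 and 2805 normalized counts in WT and 3111, 2981, 2887 and 2615 in quadruple KO libraries (log2FC 0.08, limma adjusted p = 0.581). Ephb1, known for steering ganglion cell axons that stay on the same side of the brain, had 1011, 936, 962 and 911 in WT and 1070.2, 1129.8, 1105 and 952 in quadruple KO libraries (log2FC 0.15, limma adjusted p = 0.316). The genotypes overlapped in both genes. Epha4 had a log2FC of -0.03 without WT B and WT C, whereas Ephb1 kept 0.15. Epha10, a receptor without an active kinase, had a log2FC of -0.21 (limma adjusted p = 0.301, and -0.14 without WT B and WT C). The remaining Eph receptors lay between -0.17 (Epha8) and 0.24 (Epha3).

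Of the ephrins A, Efna5 is known for setting up the retinal map in its targets. It had 708, 836, 782 and 591 normalized counts in WT A to D and 704, 747, 651 and 706 in quadruple KO A to D, with overlapping genotypes (log2FC -0.04, limma adjusted p = 0.831). The others ranged from -0.22 (Efna4) to 0.06 (Efna1). By family, the median log2FC was -0.04 for ephrins A and 0.13 for ephrins B, and -0.000500 and -0.09 for Eph receptors of subclass A and B. Without WT B and WT C these medians were 0.12, 0.21, -0.04 and -0.05.

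The vascular cells that carry several of these genes were followed by 6 endothelial markers. Their summed counts overlapped between the genotypes (8903 to 12148 in WT and 10536 to 12146 in the quadruple KO), 0 of 6 were called by limma (1 at an unadjusted p of 0.05, beside 16.6% of all genes), 5 had log2FC values above 0, and no marker was at 0 in any library. The VEGF receptor Kdr made up 91.6% of this sum, and the other 5 markers together had 822 to 1000.3 in WT and 809 to 1077 in the quadruple KO. Among them, the angiopoietin receptor Tek was higher in each quadruple KO library (189 to 226 normalized counts) than in each WT library (131 to 183). Of all genes tested, 6.16% were higher without overlap. For ganglion cells, which make many Eph receptors and Robos, the 11 markers summed to 26410 to 31314 in the quadruple KO and 32195 to 36027 in WT, without overlap. Nefl made up 48.1% of this sum. Without it the sums nearly met, with 13664 to 16507 in the quadruple KO and 16550 to 18546 in WT. Of the 11 markers, 9 had log2FC values below 0, whereas Pou4f1 (0.29) and Thy1 (0.05) lay above. Limma called 0 (5 at an unadjusted p of 0.05, all 5 lower, beside 7.28% of all genes), and none was at 0 counts. The part of either cell type in the values of the guidance genes was not tested, and in whole retina fewer cells of a type cannot be told apart from less RNA per cell.

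**Figure D3:**
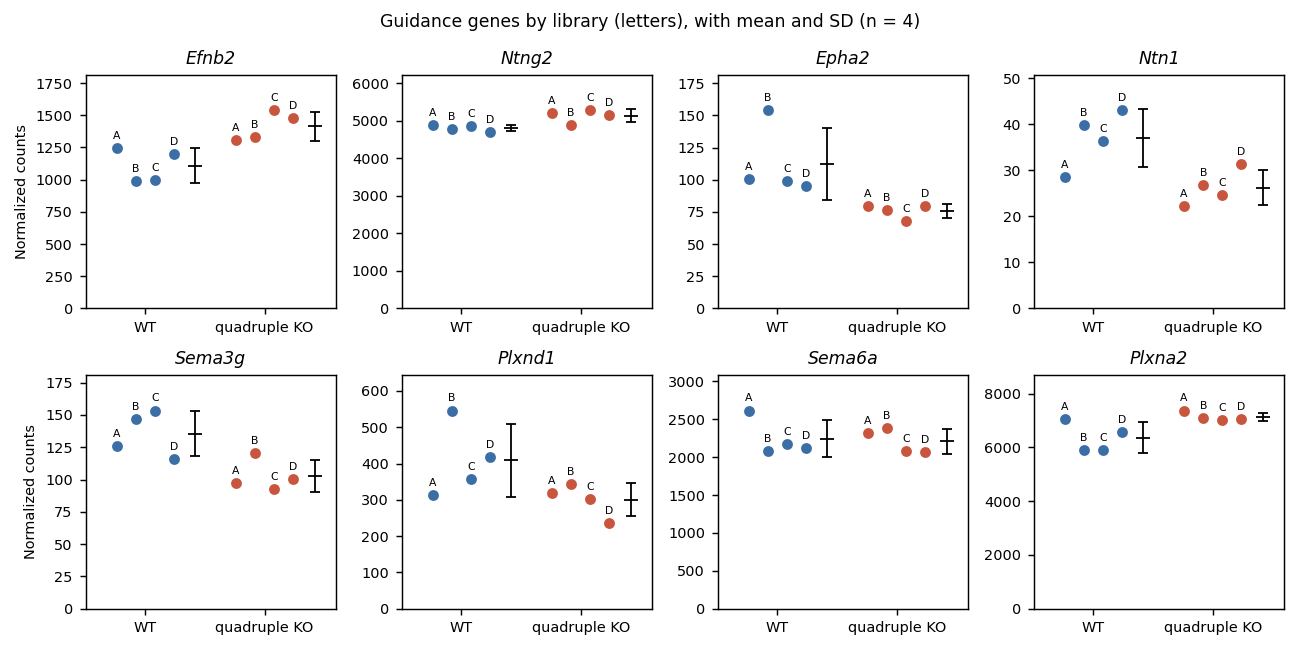
Normalized counts of 8 guidance genes in each library (letters A to D), with the mean and SD of the 4 libraries per genotype drawn beside the points and axes that start at 0. Efnb2 and Ntng2 lie higher and Epha2 lower in the quadruple KO without overlap, whereas in Ntn1, Sema3g, Plxnd1, Sema6a and Plxna2 the genotypes overlap.

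The 2 netrins G differed in how much they varied within WT. Ntng2 (ENSMUSG00000035513.20, chr2:29084553-29143017, minus strand) had 4879, 4793, 4863 and 4699.9 normalized counts in WT A to D and 5215, 4891, 5286 and 5158 in quadruple KO A to D. The lowest quadruple KO library, B, was only just above the highest WT library, and WT B and WT C did not stand apart. The log2FC was 0.09 (SE 0.06, limma adjusted p = 0.357) and it was 0.10 without WT B and WT C. Its exact permutation p of 0.0286 followed from the missing overlap alone. The related Ntng1 had 2097, 1536, 1345 and 2029 normalized counts in WT A to D and 2095, 2189, 2155 and 2015 in quadruple KO A to D. There, WT A and WT D lay among the quadruple KO libraries and WT B and WT C far below them. The log2FC of 0.29 (limma adjusted p = 0.304) was 0.03 without these 2 libraries.

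Netrins proper were less abundant than netrins G. Ntn1, the netrin that guides ganglion cell axons out at the optic disc, had 28.5, 39.9, 36.4 and 43.0 normalized counts in WT A to D and 22.3, 26.9, 24.6 and 31.3 in quadruple KO A to D. The WT A library lay within the range of the quadruple KO, and the other 3 WT libraries lay above it. The log2FC was -0.47 (SE 0.20, limma adjusted p = 0.301), and -0.41 without WT B and WT C. Ntn4, a laminin-like netrin of basement membranes, was the most abundant netrin, with 509 ± 56.9 normalized counts in WT libraries and 513 ± 35.7 in quadruple KO libraries (SD, n = 4 each; log2FC 0.02, limma adjusted p = 0.936), and Ntn3 had a log2FC of -0.04.

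The Unc5 receptors mediate repulsion by netrins. Unc5a had 915, 1119, 1119 and 891 normalized counts in WT A to D and 944, 1029.5, 904 and 821 in quadruple KO A to D, with overlapping genotypes (log2FC -0.12, limma adjusted p = 0.497). The other 3 lay between -0.19 (Unc5b) and 0.02 (Unc5c), and for all 4 the interval stayed within 1.5-fold.

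In the Slit and Robo system the most abundant ligand and receptor, Slit2 and Robo2, were close between the genotypes, and the scarce Slit3 was poorly determined. Slit2 had 7633, 6909, 5565 and 6741 normalized counts in WT and 7249, 7695, 6520.1 and 6399 in quadruple KO libraries (log2FC 0.06, limma adjusted p = 0.754). Its receptor Robo2, through which Slits keep ganglion cell axons on course, had 4066, 3538, 3988 and 3309.7 in WT and 3405, 3501, 3426 and 3625 in quadruple KO libraries (log2FC -0.09, limma adjusted p = 0.506, and -0.07 without WT B and WT C). The genotypes overlapped in both genes, and WT spread more widely than the quadruple KO. Slit3 ranged from 10.01 to 36.1 normalized counts in WT and from 9.16 to 17.7 in the quadruple KO, with WT C the highest, and its log2FC of -0.30 had an SE of 0.39. Slit1 had a log2FC of -0.26 and Robo3 and Robo4 of -0.28 and 0.13, all 3 with overlapping genotypes. Without WT B and WT C these values were -0.08, -0.21 and 0.02. The median of the Slits was -0.26 with all libraries, -0.13 without WT B, -0.03 without WT C and -0.05 without both, and that of the Robos was 0.02, and -0.03 without both. Leaving out quadruple KO B moved the median of the Slits to -0.10.

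Robo1 had the largest positive log2FC of all members. It had 895, 553, 389 and 778 normalized counts in WT A to D and 852, 935, 775 and 804 in quadruple KO A to D. WT A and WT D lay among the quadruple KO libraries, and WT B and WT C were the lowest of all 8. The log2FC of 0.43 (SE 0.23, limma adjusted p = 0.323) was 0.01 without WT B and WT C.

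Among the secreted semaphorins the leading gene differed little between the genotypes. Sema3f, which signals through Nrp2, had 4329, 4636, 5063 and 4319 normalized counts in WT A to D and 4809, 4607, 4745 and 4854 in quadruple KO A to D, with overlapping genotypes (log2FC 0.05, limma adjusted p = 0.649, and 0.14 without WT B and WT C). Nrp2 had 1064, 941, 880.4 and 935 in WT and 1002, 1083, 1032 and 1002 in quadruple KO libraries (log2FC 0.11, limma adjusted p = 0.417, and 0.04 without WT B and WT C), and Nrp1 had a log2FC of 0.07. Sema3g, a class 3 semaphorin made by endothelium, had 126, 147, 153 and 116 normalized counts in WT A to D and 97.3, 121, 92.4 and 101 in quadruple KO A to D. Quadruple KO B lay above WT D, and the other 3 quadruple KO libraries lay below all of WT. The log2FC was -0.39 (SE 0.14, limma adjusted p = 0.301), and -0.24 without WT B and WT C. The remaining class 3 members lay between -0.09 (Sema3c) and 0.16 (Sema3d), and the class median was -0.05, and -0.04 without WT B and WT C.

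Of the membrane-bound semaphorins, Sema6a and its plexin partners Plxna2 and Plxna4 are known for separating the dendrites of amacrine cells into layers. Sema6a had 2616, 2079, 2175 and 2115 normalized counts in WT A to D and 2313, 2385, 2081 and 2063 in quadruple KO A to D. WT A was the highest of all 8 and the rest intermingled (log2FC -0.02, limma adjusted p = 0.911). Sema6b, another ligand of plexins A, had 1461, 1974, 2049 and 1305 in WT A to D and 1342, 1363, 1330.2 and 1244 in quadruple KO A to D. WT A and WT D lay near the quadruple KO libraries and WT B and WT C far above them, and the log2FC of -0.34 (limma adjusted p = 0.301) was -0.07 without these 2.

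The class 4, 5 and 7 leaders gave the same picture of overlap. Sema4b, a transmembrane semaphorin, had 1349, 1641, 1736 and 1229.6 normalized counts in WT and 1275, 1304, 1267 and 1345 in quadruple KO libraries (log2FC -0.18, limma adjusted p = 0.358, and 0.01 without WT B and WT C). Sema4f, also transmembrane, had 348, 423, 391 and 326 in WT and 282, 335, 339 and 257 in quadruple KO libraries (log2FC -0.30, limma adjusted p = 0.301, and -0.16 without them). In Sema4f, quadruple KO B and C lay above WT D and below the other WT libraries. Sema5a, which restricts neurites to the inner plexiform layer through plexins A, had 2789.5 ± 177 normalized counts in WT libraries and 2696 ± 248 in quadruple KO libraries (SD, n = 4 each; log2FC -0.05, limma adjusted p = 0.728). Sema7a, a ligand of Plxnc1 and of integrins, had 2282, 2704, 2968 and 2158 in WT A to D and 2466, 2372, 2586 and 2404 in quadruple KO A to D. Its log2FC was -0.03 with all libraries (limma adjusted p = 0.878) and 0.15 without WT B and WT C, the highest of the 8. The median log2FC values were -0.03 in class 4, -0.12 in class 5 and -0.02 in class 6, and -0.02, -0.02 and -0.08 without these 2 libraries.

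The plexins included the most abundant receptors. Plxna2 had 7071, 5902, 5909 and 6573 normalized counts in WT and 7372, 7086, 7029 and 7060.2 in quadruple KO A to D. WT A lay within the range of the quadruple KO, and the other 3 WT libraries lay below it. The log2FC was 0.17 (SE 0.07, limma adjusted p = 0.301), and 0.07 without WT B and WT C. Plxnb1, the receptor of Sema4d, had 4803, 6873, 6966 and 4373 in WT A to D and 4248, 4505, 4902 and 4777 in quadruple KO A to D. Here WT A and WT D again lay among the quadruple KO libraries, and the log2FC of -0.29 (limma adjusted p = 0.322) was 0.01 without WT B and WT C.

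Plxnd1, the plexin of endothelium that binds Sema3e, had 315, 546, 356 and 417 normalized counts in WT A to D and 320.1, 343, 303 and 236 in quadruple KO A to D. WT B was the highest and quadruple KO D the lowest, and WT A lay among the quadruple KO libraries. The log2FC was -0.42 (SE 0.18, limma adjusted p = 0.301), and -0.28 without WT B and WT C. Its ligand Sema3e had a log2FC of -0.07. The other plexins lay between -0.11 (Plxna1) and 0.21 (Plxna4), and the family median was -0.07, and -0.05 without WT B and WT C.

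A further pattern lay within the WT group. In 56 of 67 members the SD of the log2 values was larger in WT than in the quadruple KO, beside 83.9% of all genes tested, with a median SD over the members of 0.19 in WT and 0.11 in quadruple KO libraries. WT B and WT C were both above WT A and WT D in 23 members (35.1% of all genes tested) and both below in 20 (35.8%). Ligands and receptors divided unevenly: both libraries were above in 17 of 36 ligands and below in 7, whereas they were above in 6 of 31 receptors and below in 13, and this difference between ligands and receptors was not tested. Transcript length differed between these groups as well. The median canonical transcript was 3810 bases for the ligands that were above and 5008 for those below, and 5346.5 and 7830 for the receptors. Over all genes tested the medians were 2927.5 bases above and 3478.5 below. The 6 Mueller glia markers, of which limma called 0 (1 at an unadjusted p of 0.05, beside 16.6% of all genes), summed to 177937 normalized counts in WT B and to 172781 in WT C, against 116312 to 134117 in the other 6 libraries. Glul made up 72.6% of this sum, with 135955 in WT B, 132019 in WT C and 81844 to 98453 in the others. Apoe, Rlbp1 and Vim were likewise higher in WT B and WT C than in every other library. Apoe had 13612 and 13411 against 10304.5 to 11469, and Rlbp1 had 13983 and 13832 against 10277 to 11294. Vim had 4355 and 5120 against 2754 to 3473. The glial glutamate transporter Slc1a3 lay the other way, with 5673 and 5128 in WT B and WT C against 6702 to 7156 in the others. The water channel Aqp4 was lowest in WT C (3271), so not all 6 markers moved together. The parts of transcript length, of cell types and of the lower share of mitochondrially encoded mRNA in this pattern were not tested.

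**Figure D4:**
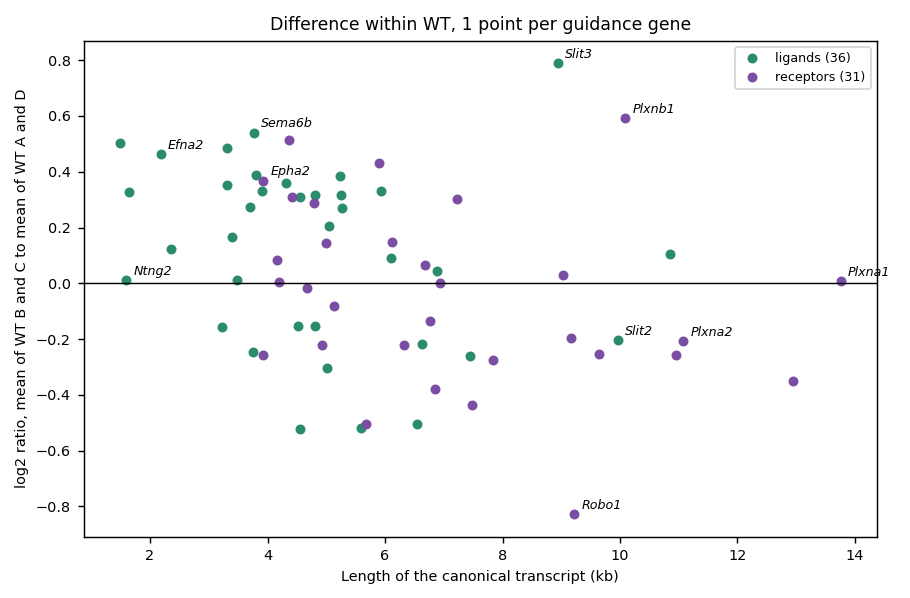
Log2 ratio of the mean normalized count in WT B and WT C to the mean in WT A and WT D, against the length of the canonical transcript in kb, with 1 point per guidance gene (36 ligands in green, 31 receptors in purple). Points above 0 were higher in WT B and WT C, with Slit3 and Plxnb1 at the upper and Robo1 at the lower extreme.

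The positions of the members were set beside those of the targeted genes and of the called genes. Of the 67, 5 lie within 10 Mb of a targeted gene, all of them near Bcan on chromosome 3, and 4 of these (Sema4a, Efna1, Efna3 and Efna4) within 2 Mb. None was called, with log2FC values of 0.01, 0.06, -0.02 and -0.22, and the other one, Sema6c, had 0.12. Within 1 Mb of any called gene lie 3 members, namely Sema4a near Bcan, Sema4f near Hk2 and Ephb1 near Pccb.

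Downstream of the receptors, 52 further genes of the pathway were read from the same fit, comprising co-receptors such as Dcc and Neo1, other cues and cytoplasmic effectors. Of these, limma called 0 (beside 0.437% of all genes tested), 8 passed an unadjusted p of 0.05 (4 higher and 4 lower, beside 16.6%), and 27 had log2FC values above and 25 below 0, with a median of 0.01. The genotypes did not overlap in 6 of 52 (beside 9.74% of all genes), with Draxin and Flrt3 higher and Dpysl4, Dpysl5, Mical3 and Ngef lower in the quadruple KO. Flrt3, a transmembrane partner of Unc5 receptors and Robo1, had the largest difference among them. It had 768, 578, 535 and 723 normalized counts in WT A to D and 857, 885, 853 and 828 in quadruple KO A to D. All quadruple KO libraries lay above WT, with WT B and WT C the lowest (log2FC 0.41, SE 0.12, limma adjusted p = 0.301, and 0.20 without these 2). Without WT B and WT C, 1 of the 52 was called, beside 0.563% of all genes. This was Dpysl3, a collapsin response mediator that links semaphorin receptors to the cytoskeleton, with a log2FC of 0.45 (limma adjusted p = 0.00442) against 0.16 (limma adjusted p = 0.516) with all libraries. Dpysl3 had 12255, 17289, 17746 and 11182 normalized counts in WT A to D and 15311, 15681, 16784 and 16392 in quadruple KO A to D. The quadruple KO libraries thus lay between the 2 pairs of WT libraries.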

How the data were processed

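The authors sequenced directional total RNA libraries made from 450 ng of retinal RNA. According to the study's methods and the submitters' processing notes, reads were demultiplexed with bcl2fastq, trimmed with Trim Galore 0.6.7, aligned to GRCm39 with STAR 2.7.9a and quantified with Salmon 1.5.2, and the genotypes were compared with DESeq2 1.32.0 in R 4.1.1. The values deposited by the authors are normalized counts per gene and library, that is Salmon's estimated counts divided by normalization factors. This division removes the depth, and because only 23.3% to 61.6% of low values were whole multiples (within 0.05 of a read) of the estimated value of 1 read, whole reads were not recovered and depths are estimates. The columns of the authors' own comparison (fold changes, standard errors and p-values) were not used.

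Values of genes averaging 10 or more normalized counts were put on the scale of log2(normalized count + 1) and compared over the 4 WT and 4 quadruple KO libraries with limma 3.58.1 in R 4.3.3 (lmFit, eBayes with trend), with Benjamini-Hochberg adjustment over all 17636 genes tested and a threshold of 0.05. A fold change on this scale understates the change of low genes. Single genes were also compared by two-sided exact permutation tests of the mean normalized count, which cannot go below p = 0.0286, without adjustment over the 67 genes. Every gene without overlap has this lowest value. Pools or animals behind the libraries are not described further, so p-values measure the spread between these libraries. Lengths and positions came from the GRCm39 annotation, in which all 67 genes were found by Ensembl ID. Overlapping and antisense genes were not separated. Tables used pandas 2.3.3, numpy 2.4.6 and scipy 1.17.1 in Python 3.11.15, and plots matplotlib 3.10.9. The fit was tested on simulated data in which libraries varied independently and with the same dispersion in both genotypes. That simulation held no common shift of WT B and WT C, so it cannot show how the fit behaves under one.

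Genes named with values were those called, those without overlap, the most abundant member of each of 16 families per kb, the 10 largest absolute log2 fold changes, and of the further pathway genes those called and the largest without overlap. Further names in ranges and counts, and Tek, Kdr, Sag, Glul, Apoe, Rlbp1, Vim, Slc1a3, Aqp4, Nefl, Pou4f1, Thy1, Epha10 and Dpysl3, were chosen after values were seen. The members, the lists and the separate treatment of WT B and WT C were chosen with earlier results of these data known. Levels per kb of all exon bases, and the further pathway genes without WT B and WT C, were added after the data were seen.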

Additional observations from a re-analysis of the deposited data

Results flagged for a closer look

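In 134 groups of 4 libraries (67 genes in 2 genotypes), the highest or lowest library was compared with the other 3 by its gap over the range of the group, set against Dixon's 95% critical value. Chance alone sets about 1 in 20 such groups apart, and 3 of 134 were. Epha2 in WT had a ratio of 0.904, with 154 normalized counts in WT B and 95.1 to 101 in the other 3. Efna4 in WT had a ratio of 0.859, with 29.8 normalized counts in WT C and 19.9 to 21.3 in the others. Plxna2 in the quadruple KO had a ratio of 0.833, with 7372 normalized counts in quadruple KO A and 7029 to 7086 in the others.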

How the results depend on the processing

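In 18 alternative settings (other scalings, filters, pseudocounts, variance model, array weights, replicate block, and libraries left out) 0 guidance genes were called, and their smallest adjusted p was 0.0781, without WT D. Over all genes, 77 were called, 143 with array weights and 54 to 89 with 1 library left out. The letters A to D did not pair the libraries (correlations of same-letter deviations from -0.11 to 0.10, only C best matched by its own letter), and with the letter as a replicate block 51 genes and 0 guidance genes were called. The count of 3 guidance genes without overlap was 10 without WT B and WT C and 3 to 11 with 1 library left out. It was 2 at a minimum mean of 100.

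Family medians moved by more than the spread between libraries as follows. The Slits (-0.26) had -0.103 at a minimum mean of 100, -0.0648 with array weights, -0.0465 without WT B and WT C, and -0.292 to -0.0284 with 1 library left out. Without WT B and WT C, the class 7 semaphorin had 0.146, the ephrins A 0.116 and the netrins G 0.0674, and the netrins G had 0.0756 with array weights. Eph receptors of subclass B had -0.129 to 0.00892 with 1 library left out.

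Without WT B and WT C the sign of the log2 fold change turned in 27 of the 67 guidance genes. Of the 27 genes named with values, none of them called, it turned for these 10, namely Epha4 (-0.0258), Slit2 (-0.0465), Unc5a (0.0297), Sema4b (0.0108), Sema5a (0.00153), Sema7a (0.146), Efna5 (0.116), Ntn4 (-0.107), Plxnb1 (0.00575) and Slit3 (0.0595). With array weights it turned for Epha4 (-0.0373), Slit2 (-0.0648), Unc5a (0.00529), Sema7a (0.0997), Efna5 (0.0339), Ntn4 (-0.106) and Slit3 (0.171), and with quantile normalization for Sema6a (0.000373). With 1 library left out the ranges that crossed 0 were -0.0284 to 0.124 for Slit2, -0.0934 to 0.000992 for Sema5a, -0.0571 to 0.0556 for Sema6a, -0.102 to 0.0512 for Sema7a, -0.142 to 0.0251 for Efna5, -0.0540 to 0.0735 for Ntn4 and -0.552 to 0.0334 for Slit3. The cause was not tested. edgeR and DESeq2 were not run because whole reads were not recovered. With 4 libraries per genotype, differences may have been missed, and the smallest difference that could have been called was not computed.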
